A study of Mus musculus with 8 samples.

Results

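The beta-2 integrins are the adhesion receptors that leukocytes carry, and the genes described here are their shared beta chain Itgb2 (CD18), the 4 alpha chains Itgal (CD11a), Itgam (CD11b), Itgax (CD11c) and Itgad (CD11d), the ligands Icam1 and Icam2, and Vcam1. They were taken by symbol from the probe sets annotated to a single gene, which gave 8 of the 18820 genes measured. Each was read by 1 probe set. RNA was measured on 8 arrays, each of epididymal white fat from male mice of strain C57BL/6. Feeding was alike in both groups, namely a low-fat diet (10% of energy as fat) for 2 weeks and then 16 weeks of a high-fat diet (45% of energy as fat). The groups were 4 wild-type arrays (WT) and 4 arrays of mice that carry human IL37 as a transgene (IL37TG). IL-37 belongs to the IL-1 cytokines and dampens innate immune responses. Neither the promoter that drives the transgene nor the age of the mice is stated in the sources used here. Per the labels the wild-type mice were bought from a supplier and the transgenic mice were an established line, so the source of the mice and the genotype cannot be told apart.

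A beta-2 integrin is a pair of 1 alpha chain with CD18, and an alpha chain reaches the cell surface only in such a pair. The pair of CD11a and CD18 (LFA-1) is found on most leukocytes, and the pair of CD11b and CD18 (Mac-1) on macrophages, monocytes and neutrophils, where it also takes up particles coated with complement. CD11c marks dendritic cells and, in fat, the macrophages that gather in obesity, and CD11d is carried by tissue macrophages. ICAM-1 and ICAM-2 on endothelium and other cells bind LFA-1, and ICAM-1 also binds Mac-1. VCAM-1 is bound mainly by the integrin of Itga4 and Itgb1, and also by CD11d with CD18. CD11c-bearing macrophages around dying fat cells are a known feature of obese epididymal fat.

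Values were log2 expression levels after RMA, a normalization that makes array distributions alike. Array medians lay between 5.97 and 6.04. Precision is limited by how few arrays there are. Nothing in the labels says that the replicates are separate mice, and p-values then measure only the spread between these samples. The annotation used held no probe set for the transgene, so the group labels were not checked by it. Adipocyte markers were abundant in every array, with a list mean of 12.07 to 12.31. Wild-type replicate 3 had the lowest macrophage marker mean of its group (9.50, against 9.99 to 10.37 in the other wild-type arrays). Transgenic replicate 4 had the lowest of all (9.15), and epididymis and testis markers averaged 6.69 in that array, against 4.01 to 4.59 in the other 7.

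The design asked how the fat of obese IL37TG mice differed from that of obese WT mice. The CD11d gene Itgad fell, to a level 4.33-fold lower in transgenic fat, and it was the 1 member of 8 that passed the test over all genes (limma, Benjamini-Hochberg adjusted p at most 0.05). No member rose. Over all 18820 genes, 3.34% were called, 1.27% as lower and 2.07% as higher. Differences are IL37TG minus WT on the log2 scale. 7 of 8 members had a difference below 0, as did 44.7% of all genes, and the median difference was -0.37 among members and 0.02 among all genes. 4 members had an unadjusted limma p at most 0.05 with lower transgenic means, as did 9.42% of all genes. The share of all genes higher at that p was not counted. Itgad was also the 1 member whose groups did not overlap, which 14.0% of all genes showed in either direction and 5.73% with lower transgenic values. In a whole tissue, fewer cells of a type and less RNA per cell cannot be told apart.

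**Figure D1:**
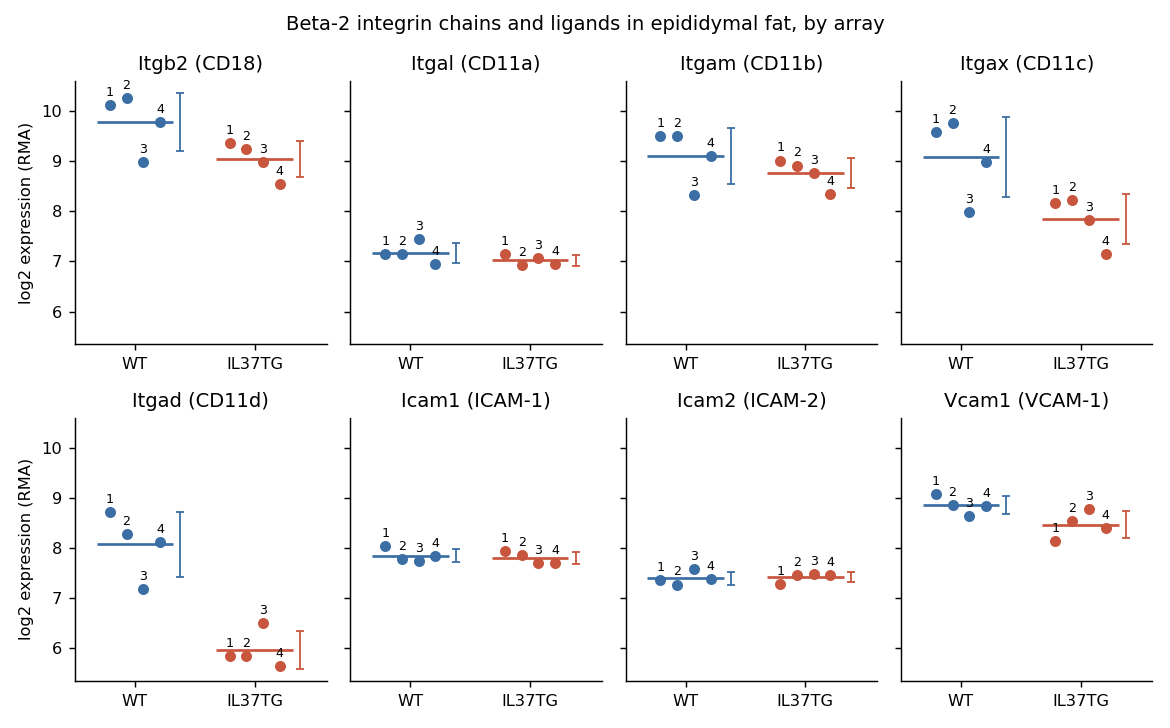
Log2 expression of the 8 genes in each array, with WT arrays in blue and IL37TG arrays in red. Points carry the replicate number, lines are group means and bars are SD (n = 4 per group). Itgad lies between 7.18 and 8.72 in WT and between 5.64 and 6.50 in IL37TG, while the groups of the other 7 genes overlap.

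The beta chain Itgb2, without which none of the alpha chains is displayed, was measured at 10.12, 10.26, 8.98 and 9.77 in WT replicates 1 to 4 and at 9.36, 9.24, 8.98 and 8.55 in IL37TG replicates 1 to 4. WT replicate 3 lay among the transgenic arrays, so the groups overlapped. The means were 9.78 ± 0.57 and 9.03 ± 0.36 (SD, n = 4), a difference of -0.75 (SE 0.29, 95% interval -1.42 to -0.08, limma adjusted p = 0.198). The difference was past the threshold without WT replicate 3 (-1.01, limma adjusted p = 0.0344). As the array with the lowest WT value, it could only widen the difference by being left out.

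Itgal, the alpha chain of LFA-1 and the one shared by lymphocytes, was 7.14, 7.15, 7.44 and 6.95 in WT and 7.15, 6.92, 7.06 and 6.95 in IL37TG replicates 1 to 4. WT replicate 3, lowest of its group for Itgb2, was the highest of all 8 arrays for Itgal. The difference was -0.15 (95% interval -0.39 to 0.10, limma adjusted p = 0.472).

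Itgam, the alpha chain of Mac-1, was 9.49, 9.50, 8.32 and 9.10 in WT and 9.01, 8.91, 8.76 and 8.34 in IL37TG. The lowest WT array lay just below the lowest IL37TG array, and the other WT arrays lay above all IL37TG arrays. The difference was -0.35 (SE 0.27, 95% interval -0.97 to 0.28, limma adjusted p = 0.505).

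Itgax, the CD11c gene, was 9.58, 9.75, 7.98 and 8.98 in WT and 8.16, 8.22, 7.83 and 7.14 in IL37TG. 3 WT arrays lay above every transgenic array, and WT replicate 3 lay below transgenic replicates 1 and 2. The means were 9.07 ± 0.80 and 7.84 ± 0.50 (SD, n = 4), a difference of -1.23 (SE 0.41, 95% interval -2.16 to -0.30, limma adjusted p = 0.138). Without WT replicate 3, again the lowest of its group, it passed at -1.60 (limma adjusted p = 0.0254).

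Itgad was 8.72, 8.27, 7.18 and 8.12 in WT and 5.85, 5.85, 6.50 and 5.64 in IL37TG. Every WT array lay above every transgenic array, WT replicate 3 included. The means were 8.07 ± 0.65 and 5.96 ± 0.37 (SD, n = 4), a difference of -2.11 (SE 0.32, 95% interval -2.85 to -1.38, limma adjusted p = 0.0190). It was the 16th lowest difference of all 18820 genes. The exact two-sided permutation p was 0.0286, the smallest that 4 against 4 arrays can give. The limma call was lost without WT replicate 1 (-1.90, adjusted p = 0.0535), WT replicate 2 (-2.05, adjusted p = 0.0555), WT replicate 4 (-2.10, adjusted p = 0.0709), IL37TG replicate 1 (-2.08, adjusted p = 0.0539) or IL37TG replicate 2 (-2.08, adjusted p = 0.0620), and with the letter in the array name as a block (-1.80, adjusted p = 0.239).

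Itgam, Itgax and Itgad are neighbours in that order on chromosome 7 in the RefSeq annotation of GRCm38.p6, with no other protein-coding gene between them. Before them stand Pycard, the inflammasome adaptor, and Trim72, and after them Cox6a2, a subunit of cytochrome oxidase of muscle. Pycard differed by -0.42 (limma adjusted p = 0.296), Trim72, with both means below the 25th percentile of gene means (4.49), by 0.04 (limma adjusted p = 0.866) and Cox6a2 by -0.63 (limma adjusted p = 0.0525). The 3 alpha chains are similar in sequence, and whether their probes read each other's RNA was not tested. These neighbours were picked by position.

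RefSeq promoter sequences on GRCm38.p6 were at hand for 3 of the 8 genes. Those of Itgam and Itgax are shown because these neighbours had the same order of WT arrays. Their differences between groups were -0.35 and -1.23, neither past the threshold, and they were not tested against each other. Whether the promoters bear on these values was not tested. PU.1, the product of Spi1, is the transcription factor long known to drive Itgam and Itgb2 in myeloid cells. Capitals mark GAGGAA on either strand, the core that PU.1 binds, and the sequences run to the base before the start of transcription.

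Itgam promoter, chr7:128062390-128062639, plus strand: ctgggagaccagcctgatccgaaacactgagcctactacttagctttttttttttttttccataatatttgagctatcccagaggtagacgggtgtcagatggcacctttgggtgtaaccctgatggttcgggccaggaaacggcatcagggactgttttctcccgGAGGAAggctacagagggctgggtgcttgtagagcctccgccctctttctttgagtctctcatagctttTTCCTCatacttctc

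Itgax promoter, chr7:128129300-128129549, plus strand: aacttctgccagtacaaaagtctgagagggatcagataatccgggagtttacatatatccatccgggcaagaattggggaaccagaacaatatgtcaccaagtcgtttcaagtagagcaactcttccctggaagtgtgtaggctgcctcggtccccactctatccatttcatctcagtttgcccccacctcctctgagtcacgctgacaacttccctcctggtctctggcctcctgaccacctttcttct

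The Itgam stretch held these letters at 2 places, starting at positions -84 and -15 from the start, and the Itgax stretch at 0. Of 32851 RefSeq promoter windows of 250 bases, 23.3% held GAGGAA on either strand, so a match is common and describes letters only.

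Since each alpha chain needs CD18, the alpha chains were also set against Itgb2 within each array. Relative to Itgb2, Itgam was higher and Itgax and Itgad were lower in transgenic fat, each with no overlap between groups. Itgam minus Itgb2 was -0.64, -0.76, -0.66 and -0.66 in WT and -0.36, -0.33, -0.21 and -0.22 in IL37TG. The means were -0.68 ± 0.05 and -0.28 ± 0.08 (SD, n = 4), a difference of 0.40 (exact permutation p = 0.0286), and WT replicate 3 was no exception. Itgax minus Itgb2 was -0.55, -0.51, -1.01 and -0.78 in WT and -1.21, -1.02, -1.15 and -1.42 in IL37TG. WT replicate 3 and transgenic replicate 2 almost touched, and the difference was -0.49 (exact permutation p = 0.0286). Itgad minus Itgb2 was -1.40, -1.99, -1.80 and -1.65 in WT and -3.51, -3.39, -2.48 and -2.91 in IL37TG, a difference of -1.37 (exact permutation p = 0.0286). Itgal minus Itgb2 differed by 0.60 (exact permutation p = 0.200), with WT replicate 3 at -1.54 and the other WT arrays at -3.11 to -2.82. These 4 values are two-sided and unadjusted, and 0.0286 is the smallest possible. Among all other genes set against Itgb2 the same way, 5.78% were higher and 0.260% lower without overlap.

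Leaving out 1 array, Itgam minus Itgb2 stayed between 0.37 and 0.42 with an exact permutation p of 0.0286 each time. That is the smallest that 3 against 4 arrays can give. Groups without overlap stay so when an array is removed, so this p-value was largely fixed in advance and does not measure stability. Itgax minus Itgb2 had an exact permutation p of 0.0571 without IL37TG replicate 1 (-0.48), 2 (-0.55), 3 (-0.50) or 4 (-0.41). Itgad minus Itgb2 had the same exact permutation p without WT replicate 1 (-1.26) or WT replicate 4 (-1.34). An exact permutation p of 0.0571 means that another assignment of the arrays gave a difference at least as large. Itgal minus Itgb2 was 0.96 without WT replicate 3 (exact permutation p = 0.0286). A limma fit of all genes set against Itgb2 was chosen after these values were seen. Its standard error was 0.39 for each of the 4 chains. Limma pulls the variance of each gene toward a value shared by all genes, and the spread of Itgb2 enters most of them. That standard error is thus not the scatter of Itgam minus Itgb2 itself, whose SDs were 0.05 in WT and 0.08 in IL37TG. Itgad passed in this fit (limma adjusted p = 0.0199), where 0.101% of genes were called lower and 3.92% higher. Itgam (limma adjusted p = 0.322) and Itgax (limma adjusted p = 0.230) did not pass. The median gene differed by 0.77 on that scale, so that Itgam at 0.40 stood higher than Itgb2 but not higher than the median gene.

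Of 21 measured macrophage markers, none of them a member, 3 fell and none rose over all genes: the fractalkine receptor Cx3cr1 (log2 -0.63, SE 0.11), the Fc receptor Fcgr1 (log2 -1.09, SE 0.23) and the lysosomal protease Lgmn (log2 -0.80, SE 0.17). At an unadjusted limma p of 0.05 the list had 16 lower and 0 higher, where 9.42% of all genes were lower. The median difference of the list was -0.59, with no marker below the 25th percentile of gene means. Its mean per array ran from 9.50 to 10.37 in WT and from 9.15 to 9.55 in IL37TG. WT replicate 3 thus lay within the transgenic range. Leaving out 1 array in turn ended the call of Cx3cr1 for 6 of the 8 arrays (log2 -0.71 to -0.57), all but WT replicate 3 and IL37TG replicate 2. It ended those of Fcgr1 (log2 -1.30 to -0.96) and Lgmn (log2 -0.96 to -0.70) for 7, all but WT replicate 3. Of 15 measured lipid-associated macrophage markers, Itgax among them, 10 were lower and 0 higher at an unadjusted limma p of 0.05, with a median of -0.84. Trem2 (log2 -2.02, SE 0.42) and Ctsk (log2 -1.25, SE 0.27) fell over all genes and none rose. Both calls ended on removal of any array but WT replicate 3 (log2 -2.43 to -1.79 and -1.47 to -1.08). Of 14 resident macrophage markers 4 rose and none fell, with a median of 0.20. At an unadjusted limma p of 0.05, 5 were higher and 1 lower. Of the 14, 5 had a difference below 0, among them Mrc1 (log2 -0.37) and Ccl8 (log2 -0.61). Retnla was among those that rose (log2 1.33, SE 0.13). It passed whichever array was left out but not with the letter of the array name as a block (log2 1.32). The haemoglobin scavenger receptor Cd163 also rose (log2 0.77, SE 0.12), and its call ended without replicate 2 or 4 of either group (log2 0.68 to 0.85).

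Set against the mean of the 21 macrophage markers within each array, Itgad still differed. The values were -1.54, -2.10, -2.31 and -1.87 in WT and -3.66, -3.70, -3.00 and -3.51 in IL37TG, with no overlap. The difference was -1.51 (SE 0.23, 95% interval -2.01 to -1.01, limma adjusted p = 0.00400). On this scale 0.409% of all genes were called lower, and 0.399% were lower and 33.4% higher without overlap. This call held whichever array was left out (-1.67 to -1.37, highest limma adjusted p = 0.0185). It also held against the mean of lipid-associated markers other than Itgax (-1.20, limma adjusted p = 0.00405). Unscaled differences in that list ran from -2.55 (Atp6v0d2) to 0.16 (Acp5). Those of Gpnmb (-2.04) and Trem2 (-2.02) were near that of Itgad (-2.11), while Lpl (-0.06), also an adipocyte marker, hardly differed. Atp6v0d2 and Gpnmb were not past the threshold. Itgad thus fell beyond the list mean, not beyond each of its genes.

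Set against the macrophage markers, Itgb2 ran from -0.52 to -0.11 in WT and from -0.60 to -0.15 in IL37TG (difference -0.15, 95% interval -0.58 to 0.29, limma adjusted p = 0.509). Itgam differed by 0.25 on this scale (95% interval -0.17 to 0.68, limma adjusted p = 0.242). Itgax differed by -0.63 (limma adjusted p = 0.0366), but the groups overlapped and the call was lost without any 1 array other than WT replicate 3, at -0.72 to -0.49. It was also lost against the lipid-associated markers (-0.32, limma adjusted p = 0.326), with the letter of the array name as a block (-0.09, limma adjusted p = 0.899) and with its number as a block (-0.63, limma adjusted p = 0.0654). The median gene shifted by 0.62 on this scale and 69.9% of all genes were called higher, so that the higher calls of Icam1 (0.56, adjusted p = 0.0379) and Icam2 (0.62, adjusted p = 0.0417) lie near the shift of the median gene. Both calls were lost on leaving out any array but WT replicate 3 (limma adjusted p up to 0.120 and 0.126). They were also lost with the letter as a block, at 0.38 (limma adjusted p = 0.800) and 0.03 (limma adjusted p = 0.966), and with the number as a block (limma adjusted p = 0.0799 and 0.0650).

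**Figure D2:**
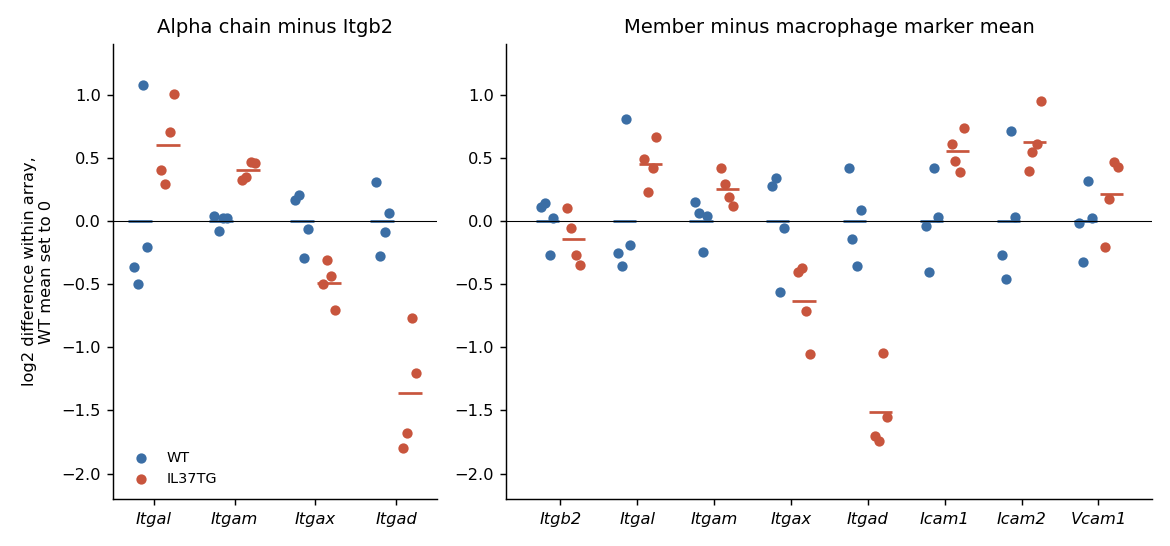
Log2 differences within each array, shown relative to the WT mean of each gene: alpha chain minus Itgb2 (left) and each gene minus the mean of 21 macrophage markers (right). Points are arrays and lines are group means (n = 4 per group). Itgad lies lower in every IL37TG array on both scales, and Itgam lies higher relative to Itgb2 in every IL37TG array.

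Among the ligands, Icam1 is the inducible partner of LFA-1 and Mac-1 and a classic target of NF-kappaB. It was 8.03, 7.78, 7.73 and 7.84 in WT and 7.93, 7.85, 7.70 and 7.70 in IL37TG. The 2 groups covered nearly the same range (difference -0.05, SE 0.09, 95% interval -0.24 to 0.15, limma adjusted p = 0.808). Its promoter is shown with the letters GGAAATTCC in capitals, a site that NF-kappaB is known to bind.

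Icam1 promoter, chr9:21015690-21015939, plus strand: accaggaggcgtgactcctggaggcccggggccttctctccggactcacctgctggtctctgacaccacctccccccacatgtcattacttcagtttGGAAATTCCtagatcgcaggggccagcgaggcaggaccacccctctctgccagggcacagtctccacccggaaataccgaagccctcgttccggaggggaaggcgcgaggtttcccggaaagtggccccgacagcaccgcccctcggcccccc

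This stretch held GGAAATTCC at 1 place, starting at position -153 from the start, as did 0.286% of the 32851 RefSeq promoter windows on either strand. The Itgam and Itgax stretches held it at 0 places. Of 24 measured inducers of Icam1 and Vcam1 (tumour necrosis factor, interleukins, interferon, their receptors and NF-kappaB subunits), 3 fell and none rose. These were the IL-1 receptor Il1r1 (log2 -0.41, SE 0.08), its accessory chain Il1rap (log2 -0.37, SE 0.08) and the NF-kappaB subunit gene Rel (log2 -0.36, SE 0.07). The list median was -0.11. Leaving out 1 array ended the call of Il1r1 for all but WT replicate 3 and IL37TG replicate 1 (log2 -0.46 to -0.37). It ended that of Il1rap for each of the 8 arrays (log2 -0.43 to -0.33) and that of Rel for all but WT replicate 3 (log2 -0.42 to -0.31).

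Icam2, a ligand of LFA-1 that endothelium carries without induction, was 7.35, 7.27, 7.57 and 7.38 in WT and 7.28, 7.46, 7.47 and 7.46 in IL37TG. The difference was 0.02 (SE 0.08, 95% interval -0.16 to 0.21, limma adjusted p = 0.908). 17 blood endothelial markers had none past the threshold, a median difference of 0.06 and list means of 9.76 to 9.89 in WT and 9.84 to 10.02 in IL37TG. Set against them within each array, Icam2 was nearly constant, between -2.49 and -2.32 in WT and between -2.56 and -2.41 in IL37TG (difference -0.08, 95% interval -0.25 to 0.08, limma adjusted p = 0.539).

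Vcam1 was 9.07, 8.86, 8.63 and 8.84 in WT and 8.13, 8.54, 8.78 and 8.39 in IL37TG. 3 transgenic arrays lay below all WT arrays and transgenic replicate 3 lay among them. The difference was -0.39 (SE 0.15, 95% interval -0.72 to -0.05, limma adjusted p = 0.183). Against the endothelial markers the difference was -0.49 (SE 0.14, 95% interval -0.81 to -0.18, limma adjusted p = 0.0985), where 1.34% of all genes were called lower and 0.510% higher, and Itgad was the 1 member called (-2.22, limma adjusted p = 0.0162). On that scale the Itgad call was lost without WT replicate 2 (-2.14, limma adjusted p = 0.0508), WT replicate 4 (-2.21, limma adjusted p = 0.0679) or IL37TG replicate 2 (-2.18, limma adjusted p = 0.0643). The chains of the main receptor of VCAM-1, named here for that role after their values were seen, differed little. Unscaled, the differences were -0.25 (Itga4, limma adjusted p = 0.352) and -0.07 (Itgb1, limma adjusted p = 0.582).

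Of 22 other integrin chains measured, 2 fell and none rose, with differences from -0.51 to 0.46 and a median of 0.07. Itga7, a laminin receptor of muscle, fell from 10.63 ± 0.04 to 10.12 ± 0.07 (SD, n = 4; log2 -0.51, SE 0.05, limma adjusted p = 0.00548), whichever array was left out (highest limma adjusted p = 0.0295). Itgav, the alpha chain of the receptors that activate latent TGF-beta, fell from 9.78 ± 0.09 to 9.29 ± 0.09 (SD, n = 4; log2 -0.49, SE 0.07, limma adjusted p = 0.0170). Its call was lost without WT replicates 1, 2 or 4 (differences over all 8 removals -0.54 to -0.46, highest limma adjusted p = 0.0680). With the letter of the array name as a block, neither passed, at -0.58 (limma adjusted p = 0.103) and -0.36 (limma adjusted p = 0.357).

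**Figure D3:**
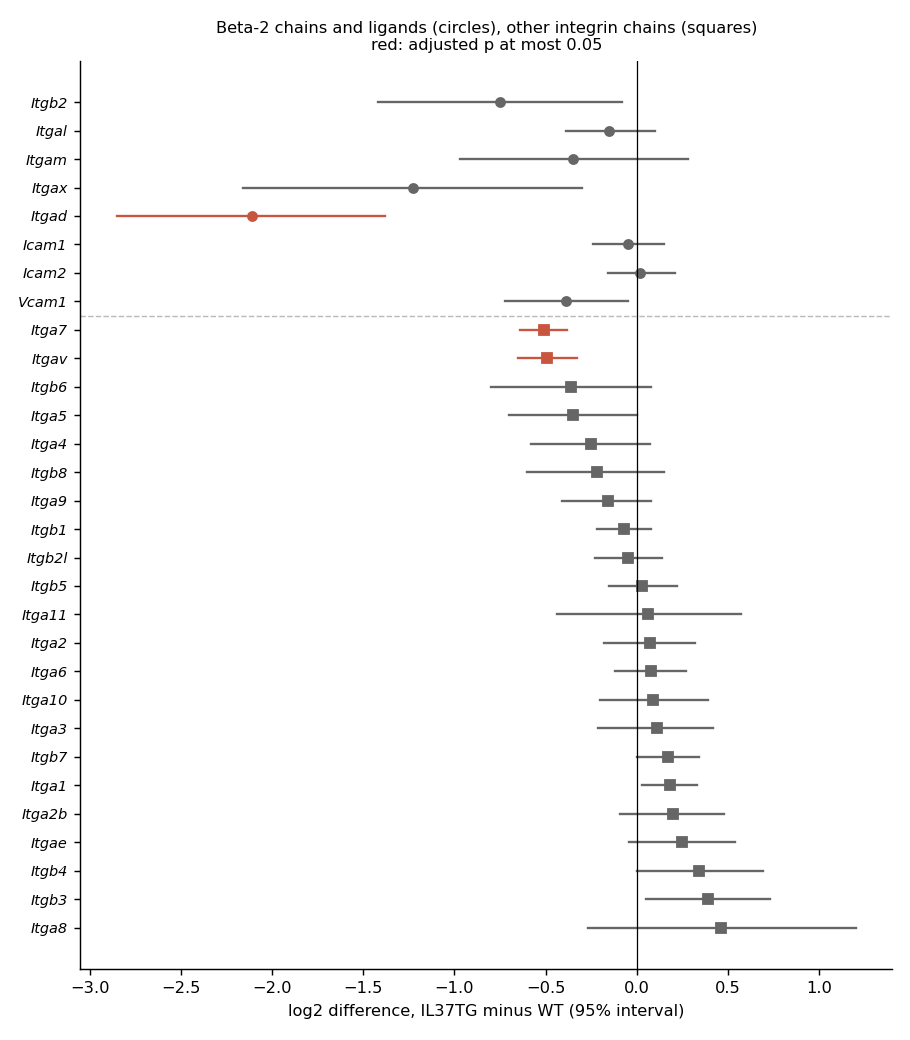
Log2 difference (IL37TG minus WT) with its 95% interval from limma for the 8 members (circles) and 22 other integrin chains (squares), with red for adjusted p at most 0.05. Itgad lies at -2.11, and Itga7 and Itgav lie near -0.50.

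Of 18 other ligands and partners of leukocyte integrins measured, Sirpa, the macrophage receptor that reads CD47, fell (log2 -0.88, SE 0.18, limma adjusted p = 0.0416) and none rose, with a median of 0.00 to 2 decimals. Leaving out any array but WT replicate 3 ended the Sirpa call (log2 -1.05 to -0.78). Of 36 measured genes of integrin activation and signalling none passed the test, with a median of -0.18. At an unadjusted limma p of 0.05, where 9.42% of all genes were lower, 12 of the 36 were lower and 2 higher. The 2 with the lowest p were Lcp1, the leukocyte actin bundler L-plastin (log2 -0.97, limma adjusted p = 0.0557), and Apbb1ip, the adaptor RIAM that links Rap1 to talin (log2 -0.78, limma adjusted p = 0.0649). Of 14 selectins and selectin ligands none passed in limma (2 lower and 1 higher at an unadjusted p of 0.05; median -0.02). Of 20 genes of leukocyte transmigration, Ackr1, the chemokine receptor of venules, fell (log2 -0.56, SE 0.11, limma adjusted p = 0.0422) and none rose. That call was lost on leaving out any array but replicate 3 of either group (log2 -0.64 to -0.49).

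Of 14 myeloid transcription factors 2 fell and none rose, with a median of -0.28. Irf8, needed for monocytes and dendritic cells, fell by 0.63 on the log2 scale (SE 0.12, limma adjusted p = 0.0309), and Tfec, a relative of Mitf in macrophages, fell by 0.81 on the log2 scale (SE 0.13, limma adjusted p = 0.0212). The Irf8 call was lost on leaving out any array but WT replicate 3 and IL37TG replicate 1 (log2 -0.72 to -0.56). The Tfec call was lost on leaving out any array but WT replicate 3 and IL37TG replicates 3 and 4 (log2 -0.88 to -0.68).

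Markers of other cells that carry beta-2 integrins were compared too. Of 12 neutrophil markers, 6 of them below the 25th percentile of gene means, S100a8 (log2 -1.51) and Csf3r (log2 -0.46) fell and Mmp9 (log2 1.29) rose, with list means of 4.76 to 4.95 in WT and 4.68 to 5.09 in IL37TG. The S100a8 call held without replicate 3 of either group and was lost without any other array (log2 -1.77 to -1.33). The Csf3r call was lost without WT replicates 1, 2 or 4 or IL37TG replicates 2 or 4 (log2 -0.51 to -0.43), and the Mmp9 call without WT replicates 1, 2 or 4 or IL37TG replicates 1 or 4 (log2 1.08 to 1.44). Of 13 T cell markers Themis fell (log2 -1.56, SE 0.16), with a list median of -0.15. Its call held whichever array was left out and was lost with the letter of the array name as a block (log2 -1.58, limma adjusted p = 0.0555). Of 11 B cell markers Cd72, which macrophages also carry, fell (log2 -2.35, SE 0.32), and the call was lost without WT replicate 4 (-2.39, limma adjusted p = 0.0534). By limma none of 13 dendritic cell (median 0.18), 9 monocyte (median -0.27), 9 natural killer cell (median -0.11) or 8 eosinophil (median 0.11) markers passed. At an unadjusted p of 0.05 they numbered 3 higher, 4 lower, 1 lower and 0. Over all genes 9.42% were lower at that p. The share of all genes that was higher was not counted, so higher counts have no share to be set against. None of 10 mesothelial markers (median 0.30; 2 higher unadjusted) and none of 13 progenitor and fibroblast markers (median -0.01; 1 higher and 3 lower unadjusted) passed in limma. None of 9 mast cell markers (median -0.23; 2 lower unadjusted), 6 lymphatic endothelial markers (median 0.52; 0 unadjusted), 10 mural cell markers (median 0.17; 2 higher and 1 lower unadjusted), 2 red blood cell markers (1 higher unadjusted) or 8 epididymis and testis markers (0 unadjusted) passed in limma. Of 12 adipocyte markers, the glucose transporter Slc2a4 (log2 0.74, SE 0.11) and the adipokine Adipoq (log2 0.30, SE 0.06) rose and none fell. Leaving out 1 array ended the Slc2a4 call without WT replicates 1, 2 or 4 or IL37TG replicate 2 (log2 0.68 to 0.84), and the Adipoq call without any array but WT replicate 3 (log2 0.28 to 0.34). What share these cells have in the member differences was not tested.

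The genes with array profiles most like each member were found by the root mean square difference between log2 values over the 8 arrays, after each gene was centred on its own mean, among 13493 genes. Nearest to Itgb2 was Spi1, the gene of PU.1, at 0.0403 log2 units where Itgb2 itself had a spread of 0.558. Spi1 differed by -0.81 (limma adjusted p = 0.161). Nearest to Itgal was Cd3e (0.0577), a chain of the T cell receptor complex, which differed by -0.21 (limma adjusted p = 0.329). Nearest to Itgam were Hmga2 (0.0658) and Nlrp1b (0.0816), and nearest to Itgax were Arhgap25 (0.0975), a Rac regulator of leukocytes, and Slc15a3 (0.117), a peptide carrier of lysosomes. Nearest to Itgad were Hpgds (0.200), the prostaglandin D synthase of blood cells, and Cd72 (0.238), where Itgad had a spread of 1.15. Hpgds fell from 9.23 ± 0.62 to 7.35 ± 0.24 (SD, n = 4; log2 -1.88, SE 0.29, limma adjusted p = 0.0196). That call was lost without the same 5 arrays as that of Itgad (-2.15 to -1.71). Nearest to Vcam1 was Layn (0.0752), a hyaluronan receptor. For Icam1 and Icam2, whose spreads were 0.110 and 0.0976, the nearest genes were Abhd5 (0.0406) and Erlec1 (0.0275), and such small spreads make likeness easy to reach.

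**Figure D4:**
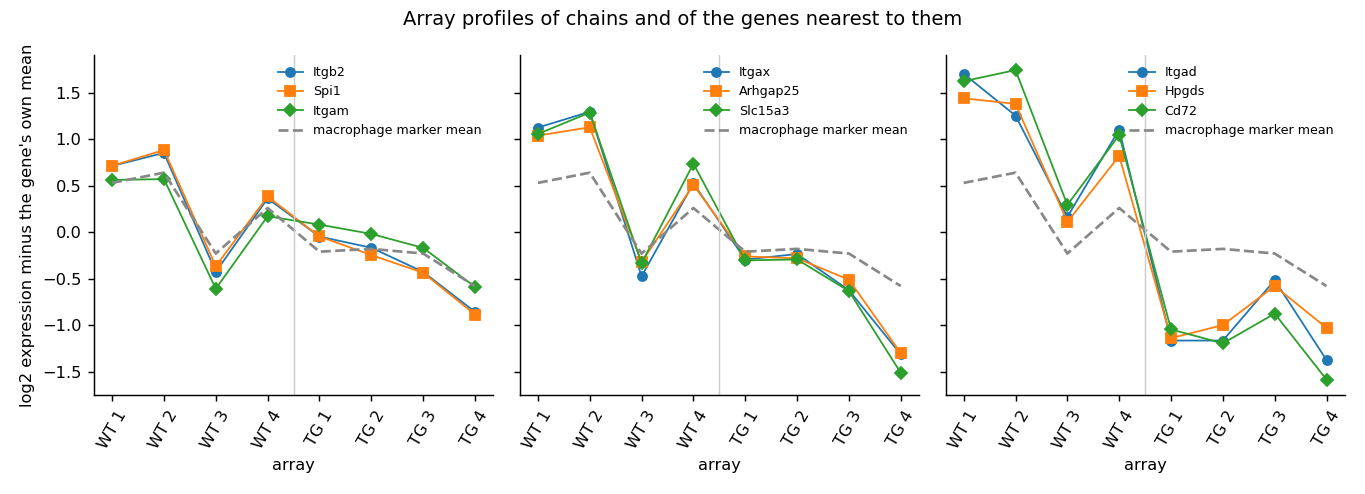
Log2 expression minus each gene's own mean in the 8 arrays for Itgb2 with Spi1 and Itgam (left), Itgax with Arhgap25 and Slc15a3 (middle) and Itgad with Hpgds and Cd72 (right). The dashed line is the mean of 21 macrophage markers. Itgb2, Itgax and Itgad dip in WT replicate 3 and are lowest in IL37TG replicate 4. Itgad is lower in every IL37TG array than in any WT array.

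Among the members, Itgb2, Itgam and Itgax had the same order of WT arrays (replicate 3 lowest, then 4, 1 and 2), and WT replicate 3 was lowest for Itgad, Icam1 and Vcam1 as well. IL37TG replicate 4 was lowest of its group for Itgb2, Itgam, Itgax and Itgad. The smallest distance between members was that of Icam2 and Itgal (0.169), followed by Icam1 and Icam2 (0.183), Itgal and Icam1 (0.196) and Itgb2 and Itgam (0.207), while Itgad was 0.584 from Itgax and 0.757 from Itgb2. These are descriptions over 8 arrays that share 2 groups.

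The array names carry a letter and a number that were uneven between groups. Within the letter G, which held 2 WT arrays and 1 IL37TG array, Itgad differed by -1.80, Itgax by -0.32, Itgb2 by -0.01, Itgal by -0.04, Itgam by 0.30, Icam1 by 0.15, Icam2 by -0.20 and Vcam1 by -0.61. Within the numbers 5, 7 and 9, Itgad differed by -1.33, -1.93 and -2.52, Itgax by 0.25, -1.45 and -2.10, Itgb2 by 0.26, -0.97 and -1.30, and Itgam by 0.59, -0.53 and -0.83. Vcam1 differed by -0.09, -0.17 and -0.60, Itgal by -0.52, 0.02 and -0.10, Icam1 by 0.12, -0.23 and 0.04, and Icam2 by -0.11, 0.10 and 0.10. Itgad was thus lower in each of these subsets, which its full separation fixed in advance, and Itgb2, Itgam and Itgax were not lower within the number 5, the pair of WT replicate 3 and IL37TG replicate 2. The letters F and H each held 1 group, so a fit with the letter as a block compares 1 IL37TG array with 2 WT arrays. Of 27 named genes that passed over all genes, 0 passed in that fit. What the letter and number stand for was not given in the sources used here.

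**Figure D5:**
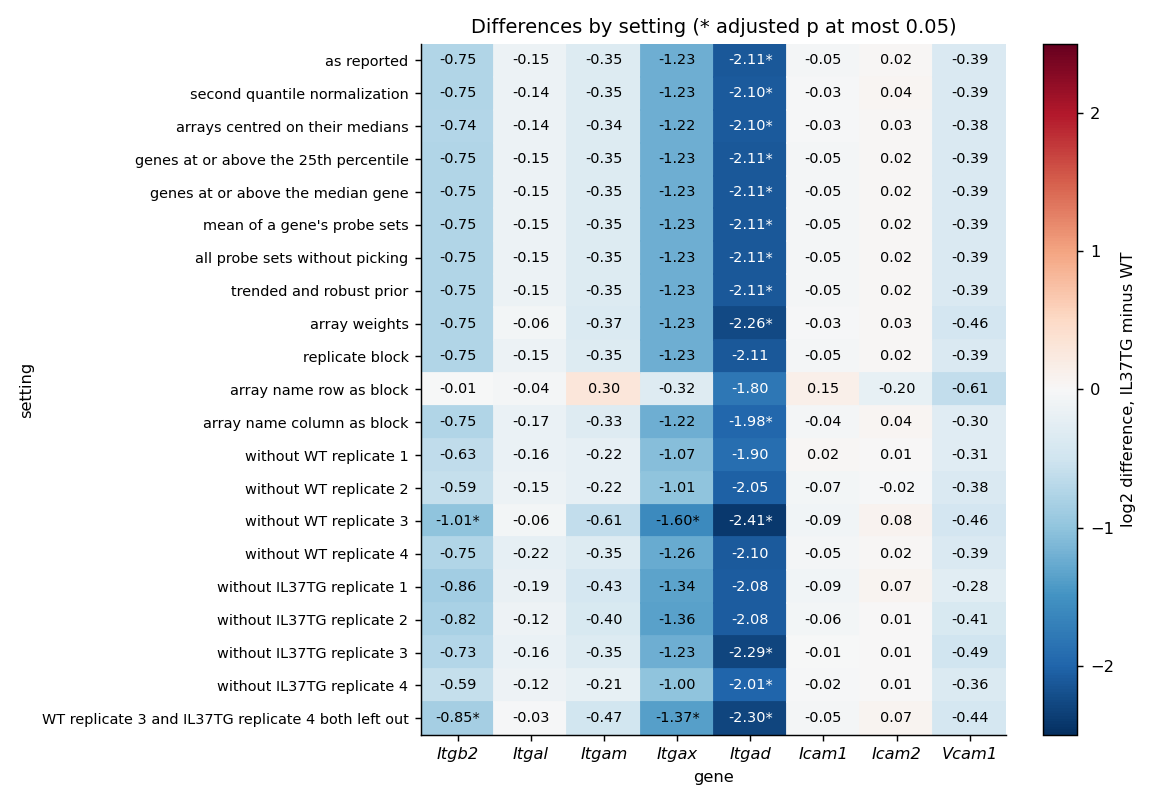
Log2 difference (IL37TG minus WT) of the 8 members, in columns, under each way of processing the data, in rows, with an asterisk where the adjusted p was at most 0.05. Itgad stays between -2.41 and -1.80, and among the other members Itgb2 and Itgax pass in the 2 rows that leave out WT replicate 3.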

How the data were processed

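The authors deposited log2 levels for each probe set, made with RMA per the submitters' processing notes. No settings, version, array annotation or genome build for it is given in the sources used here. Per the labels' protocols, 100 ng of total RNA went into cDNA of whole transcripts, and biotin was the single label. No detection calls were used. Quantile steps in RMA hide a shift shared by most genes.

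Of 35556 probe sets, 21218 had 1 gene symbol, 1881 several and 12457 none. Symbols were updated through Entrez identifiers for 21185, with the RefSeq gene table of GRCm38.p6. The probe set with the highest mean was kept for each of 18820 genes. The test was limma 3.58.1 under R 4.3.3, two-sided, with lmFit and eBayes and a threshold of 0.05 after Benjamini-Hochberg adjustment over all genes, unscaled and after subtracting a marker mean in each array. Alpha chains minus Itgb2 were compared by an exact permutation over 70 assignments. The steps were tested on simulated data. For limma the simulated noise was normal and independent between genes, so shifts that many genes share in an array were not covered. Figures were drawn with matplotlib 3.10.9.

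The members and gene lists were chosen with earlier results of these data known. Named genes were the members, up to 4 passing genes of each list by lowest p (or 2 where none passed) and 2 nearest profiles per member, not all of which are named.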

Additional observations from a re-analysis of the deposited data

Results flagged for a closer look

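Of 246 groups of 4 arrays examined (members, named genes, list means and differences within arrays), 18 (7.32%) held a single array well apart from its 3 fellows. By chance about 1 group in 20 would. Values are log2 levels unless said otherwise.

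Among the members, IL37TG replicate 1 stood apart for Icam2 (7.28, against 7.46 to 7.47), and the mean of the 8 members stood apart in IL37TG replicate 4 (7.52, against 7.86 to 7.88). That array was also apart for the means of the macrophage markers (9.15), the integrin activation genes (8.36) and the inducers of Icam1 and Vcam1 (7.50), for Plac8 (5.48) and for Nlrp1b (5.86). WT replicate 3 stood apart for Itgal minus the macrophage marker mean (-2.06, against -3.22 to -3.05), for Ackr1 (7.84) and for the selectin list (6.99). IL37TG replicate 3 stood apart for the other ligands and partners (7.11), the mesothelial markers (7.83) and Adam7 (4.13). IL37TG replicate 1 stood apart for Csf3r (5.88) and the T cell markers (6.47). WT replicate 1 stood apart for Retnla (10.26) and Cstf2t (6.79), and WT replicate 2 for Lyve1 (8.58).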

How the results depend on the processing

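Counts are given as lower and higher. As reported they were 239 and 390 over all genes and 18 and 7 over list genes (a gene counted once per list). Members called lower were 1 unscaled, 2 against macrophage markers (with 2 higher) and 1 against endothelial markers. All genes gave 554 and 741, and lists 35 and 17, among genes above the median gene, with 2 members against endothelial markers. Array weights gave 539 and 724, and 41 and 17. Members were then 3 lower and 4 higher against macrophage markers, and 4 lower against endothelial markers. Shares of all genes on these scales were counted only for the fit as reported. They were 0.409% lower and 69.9% higher against macrophage markers, and 1.34% lower against endothelial markers. Lists gave 12 higher above the 25th percentile and 11 with a trended and robust prior. An adjusted p of 0.1 gave 680 and 857, and 37 and 19. One of 0.01 gave 26 and 43, 2 and 1, and 0 members. Exact permutation p unadjusted gave 1078 and 1550, and 43 and 29.

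With the replicate block, counts were 53 and 40, lists 3 and 2, members 0, with 1 higher against macrophage markers and 0 lower against endothelial markers. Itgad was -2.11 there (limma adjusted p = 0.0903). Same-numbered arrays correlated at 0.057 to 0.102 in their deviations from group means, and differently numbered arrays at -0.305 to 0.371. Whether same-numbered arrays belong together was not tested. With the letter of the array name as a block, counts were 60 and 10, lists 2 and 0, members 0, with 1 lower and 0 higher against macrophage markers and 0 lower against endothelial markers. With the number as a block they were 28 and 44, lists 2 and 1, with 1 lower and 0 higher against macrophage markers.

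Leaving out 1 array gave 32 to 668 lower and 50 to 520 higher genes, 2 to 56 and 1 to 10 in lists, and 0 to 3 members lower. Against macrophage markers it gave 1 to 2 lower and 0 to 3 higher, and against endothelial markers 0 to 4 lower. Differences from Itgb2 ran from 0.43 to 0.96 (Itgal), -0.59 to -0.41 (Itgax) and -1.56 to -1.22 (Itgad). Without WT replicate 3 and IL37TG replicate 4 together, 491 genes, 49 in lists, 3 members and 3 against endothelial markers were lower. Itgam was then 0.38, Itgax -0.51 and Itgad -1.45 from Itgb2 (exact permutation p = 0.1, the smallest for 3 against 3). In the limma fit relative to Itgb2, added after the data were seen, Itgam was 0.40 and Itgax -0.49. Lipid-associated scaling left 1 member lower and turned Itgb2 to 0.17.

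The sign turned with the letter block for Itgam (0.30), Icam1 (0.15), Icam2 (-0.20), Prf1 (0.00), Eomes (0.11), Flt4 (-0.39), Slc4a1 (-0.03), Atp8b4 (0.08), Hmga2 (0.11), Nlrp1b (0.13), Abhd5 (0.09), Cstf2t (0.20), Erlec1 (-0.16) and Maco1 (-0.19). It turned there too for Itgb2 (0.22) and Vcam1 (-0.37) against macrophage markers, and for Itgb2 (0.01), Itgam (0.31) and Icam1 (0.17) against endothelial markers. None of these passed as reported. Leaving out 1 array also turned signs, with ranges of -0.09 to 0.02 for Icam1, -0.07 to 0.01 for Abhd5, -0.02 to 0.08 for Icam2 and -0.02 to 0.06 for Maco1. The causes were not tested, and 4 arrays a group limit all of these values.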
